A study of Mus musculus with 4 samples.

Results

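The 9 genes described here are Trem1, Trem2, Tyrobp, Gpnmb, Apoe, Spp1, Lgals3, Cd9 and Fn1. Apart from Trem1, which encodes a related receptor, they are genes of the lipid-associated macrophage state that is marked by the receptor TREM2. All 9 were taken by name, from 21900 protein-coding genes, and the accessible regions nearest to them were then collected. Chromatin accessibility had been measured by ATAC-seq, in which a transposase cuts open DNA, in cultured mouse bone marrow-derived macrophages of 2 genotypes, with 2 libraries each. Knockout (KO) cells came from Ezh2fl/fl;LysM-Cre+/- mice, which lose the histone methyltransferase gene Ezh2 where Cre is made from the myeloid LysM (Lyz2) locus, whereas littermate controls gave the wild-type (WT) cells. Cells of both genotypes had grown in medium with L929 cell supernatant and had then been kept for 24 hours in conditioned medium of the mouse hepatoma line Hepa1-6, so that no library here lacks that exposure. Neither the age or sex of the mice nor whether replicates were separate mice is given in the labels, and the spread between replicates may therefore be technical.

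TREM2 is a surface receptor of macrophages and microglia that binds lipids, lipoproteins and dying cells. It has no signalling tail of its own and signals through the adaptor DAP12, encoded by Tyrobp, to the kinase SYK. TREM1 uses the same adaptor and is known for amplifying inflammatory signals. Macrophages with high TREM2 in fat tissue, plaques, injured liver and tumours share a programme that includes GPNMB, APOE, osteopontin (Spp1), galectin-3 (Lgals3), the tetraspanin CD9 and fibronectin (Fn1).

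Each library had its own list of broad peaks, with 69210 and 72887 peaks in WT and 67055 and 71111 in KO. Read depth is unknown, since the lists give no counts. Peaks of the 4 lists that overlapped by at least 1 bp were merged into 91858 regions on mm10, and a region was given to its nearest protein-coding gene when that gene lay within 50 kb. A region was called in a library when a peak of that library overlapped it, and was shared when all 4 libraries called it. Of the macrophage markers, 10 of 10 had a shared region within 1 kb of a transcription start site, or of either gene end where no start was listed. The same held for 2 of 6 neutrophil, 0 of 4 B cell, 1 of 4 T and NK cell, 1 of 3 dendritic cell, 1 of 4 osteoclast, 1 of 3 fibroblast and 1 of 4 hepatocyte markers. Over all protein-coding genes the share was 54.8%. Of 7 regions assigned to Ezh2, 4 were shared, and a peak list does not show whether the floxed part was lost. With 2 libraries against 2, an exact two-sided test cannot give a p below 0.33, so every comparison is a description of the values by library. In such bulk libraries, fewer cells with an open region and less opening per cell cannot be told apart.

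Peaks lay at or next to an end of each of the 9 genes in every library. Each of the 9 had a shared region within 1 kb of a start site or, for Tyrobp and Fn1, of an annotated gene end, against 54.8% of all protein-coding genes. This count was 8 with peaks of a q of 0.01 or less and fell to 4 with the weakest 25% of each list removed. For the 7 genes with an entry in the RefSeq promoter table (GRCm38.p6, equivalent to mm10), the 250 bases before the first start site were touched by a shared region in 7 of 7 cases, against 50.9% of 17492 such windows. The windows of the later start sites of Apoe and Spp1 overlapped 0 regions. Of the 7 windows at first start sites, 5 are printed. The first 4 printed are the only ones of the 7 that hold the PU.1 core GAGGAA. The last, at Gpnmb, lies under the widest shared region and holds none of the motifs searched. Capitals mark motif matches on either strand.
Trem1 chr17:48232489-48232738 (+ strand): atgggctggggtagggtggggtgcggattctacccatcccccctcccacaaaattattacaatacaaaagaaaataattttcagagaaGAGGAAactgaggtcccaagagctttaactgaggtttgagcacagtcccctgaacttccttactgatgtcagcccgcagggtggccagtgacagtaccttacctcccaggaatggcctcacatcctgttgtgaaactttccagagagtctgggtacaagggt
Trem2 chr17:48346151-48346400 (+ strand): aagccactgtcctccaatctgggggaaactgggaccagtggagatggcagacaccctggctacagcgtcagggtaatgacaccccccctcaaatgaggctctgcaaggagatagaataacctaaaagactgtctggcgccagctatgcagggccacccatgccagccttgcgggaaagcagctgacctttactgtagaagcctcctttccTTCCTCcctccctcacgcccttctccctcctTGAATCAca
Apoe chr7:19699189-19699438 (- strand): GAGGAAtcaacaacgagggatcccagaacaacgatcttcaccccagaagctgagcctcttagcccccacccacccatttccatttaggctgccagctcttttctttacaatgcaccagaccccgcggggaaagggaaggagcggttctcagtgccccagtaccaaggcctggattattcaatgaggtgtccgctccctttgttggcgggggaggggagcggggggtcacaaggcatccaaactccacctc
Spp1 chr5:104434861-104435110 (+ strand): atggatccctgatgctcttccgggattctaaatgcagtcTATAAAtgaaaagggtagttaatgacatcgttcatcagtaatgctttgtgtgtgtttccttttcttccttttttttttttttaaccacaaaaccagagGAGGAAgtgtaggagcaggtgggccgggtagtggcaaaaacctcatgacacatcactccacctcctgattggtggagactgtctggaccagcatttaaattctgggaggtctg
Gpnmb chr6:49036268-49036517 (+ strand): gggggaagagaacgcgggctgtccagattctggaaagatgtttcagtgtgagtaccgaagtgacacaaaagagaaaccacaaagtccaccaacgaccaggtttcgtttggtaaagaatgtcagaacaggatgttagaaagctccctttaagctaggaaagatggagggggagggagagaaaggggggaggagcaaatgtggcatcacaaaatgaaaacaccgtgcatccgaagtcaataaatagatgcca
The searched motifs were GAGGAA (PU.1, the ETS factor that specifies myeloid cells), TTGCNNAA (C/EBP), TGANTCA (AP-1), TCATGTG (the M-box of MITF and TFE factors), CACGTG (the E-box of the same factors), the promoter element TATAAA and, for the sterol receptor LXR, a pair of TGACCT half-sites spaced by 4 bases. Both strands were searched, and no matches overlapped each other in the printed windows. GAGGAA was present in 4 of the 7 windows, at Trem1, Trem2, Apoe and Spp1, and in 22.1% of all 17492. At Trem2 it lies on the opposite strand and reads as TTCCTC, 40 bases before the start site, and is followed by the only AP-1 match, 9 bases before it (6.18% of all windows hold one). Spp1 had the only TATAAA of the 7 windows, 211 bases before its start site (12.4% of all windows). The C/EBP, M-box, E-box and LXR motifs had 0 matches in the 7 windows, against 9.14%, 2.66%, 6.65% and 0% of all windows. GC content of the 7 windows ran from 43.6% at Spp1 to 66% at Lgals3, and their CpG dinucleotides numbered 2 at Trem1 to 16 at Cd9. Over all windows the medians were 55.2% and 10. With the later start sites of Apoe and Spp1 added, GAGGAA was in 5 of 10 windows, TATAAA in 2 and the C/EBP motif in 1. Over all 21263 windows that include later start sites, the shares were 22.2%, 11.6% and 9.09%. A match describes the letters only.

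In total 61 regions were assigned to the 9 genes, and 38 of them (62.3%) were shared, against 59.5% of all regions within 50 kb of a protein-coding gene. The count differed widely between genes, from 13 regions at Cd9 and 12 at Gpnmb to 3 at Fn1 and 2 at Apoe. Of the other 23 regions, 1 was called in 3 libraries, 5 in 1 library of each genotype and 15 in a single library. The single-library calls numbered 4 and 6 in WT replicates 1 and 2 and 4 and 1 in KO replicates 1 and 2. The 10 in WT were 16.4% of the member regions, against 11.7% of all regions, and the 5 in KO were 8.2%, against 10%, so the gap between genotypes rested on the second replicates. A single region was called in both KO libraries and no WT library (1.64%, against 1.44% of all regions), and 1 in both WT libraries and no KO library (1.64%, against 1.94%). Shared regions of the 9 genes were 267 to 1876 bp wide with a median of 613 bp, and the others were 111 to 521 bp wide with a median of 171 bp. Over all assigned regions these medians were 519 and 192 bp. With a library left out, its genotype needs only a single call, and the share of all regions under that rule is not given here. The WT-only count was then 7 without WT replicate 1 and 5 without WT replicate 2. The KO-only count was 2 without KO replicate 1, 6 without KO replicate 2 and 2 without WT replicate 1.

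**Figure D1:**
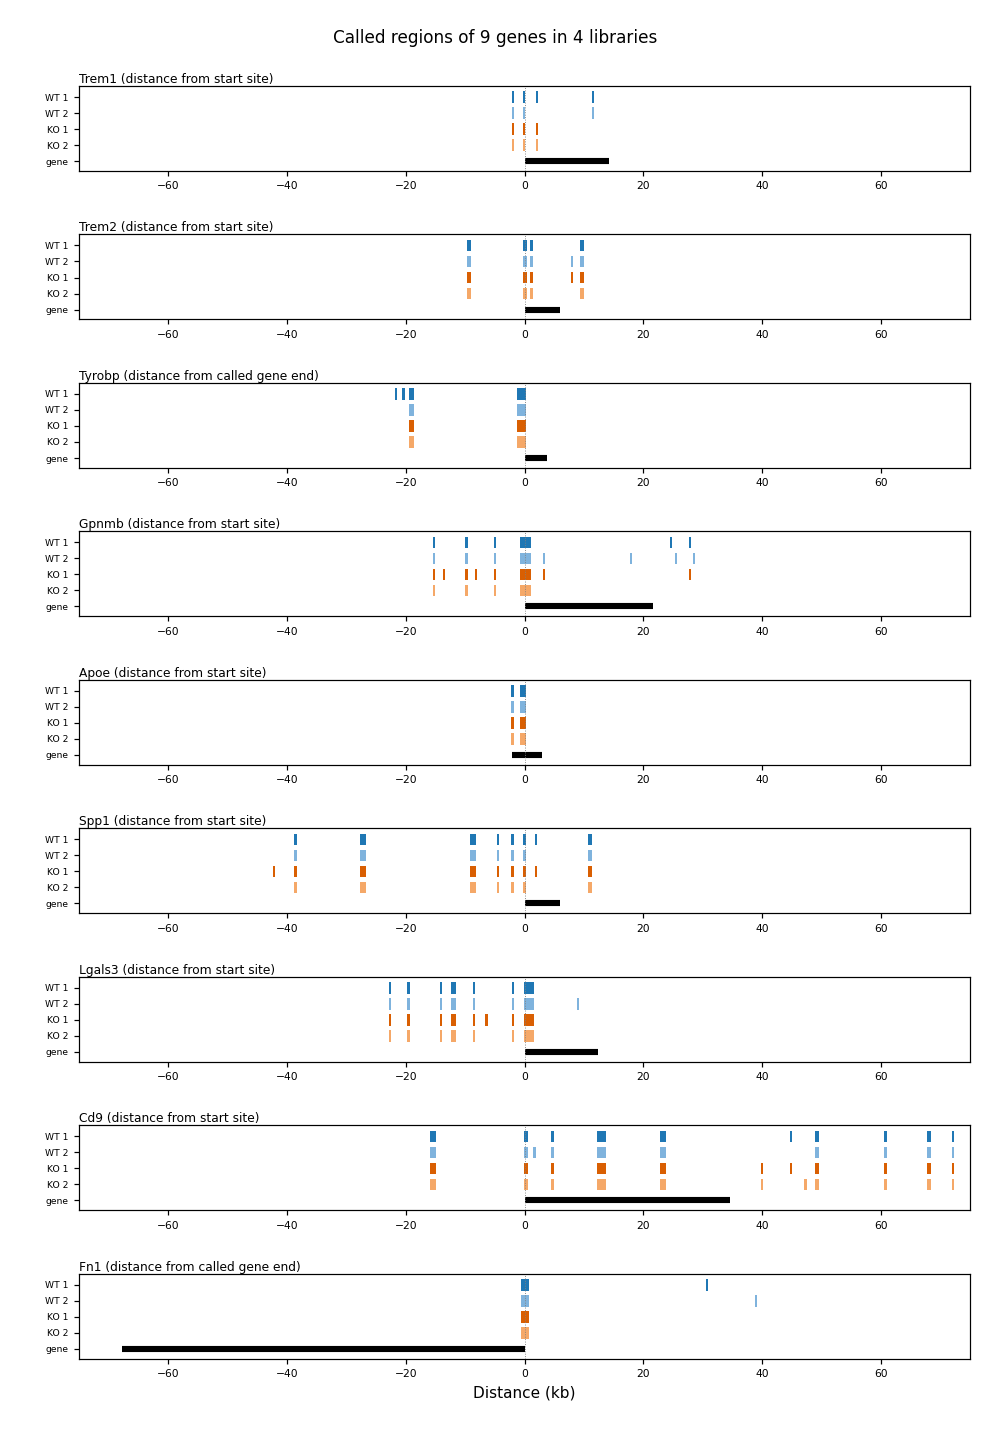
Regions of the 9 genes called in each of the 4 libraries, by distance in kb from the first start site along the direction of transcription (for Tyrobp and Fn1, from the gene end that carries the shared region, in the direction of increasing coordinates). Each bar spans the merged region, with the narrowest drawn wider than scale so that they can be seen, and the black bar is the gene. Every gene has a bar in all 4 libraries at distance 0, while Cd9, Gpnmb, Spp1 and Lgals3 have the most distal regions.

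The only region called in both WT libraries and neither KO library lay inside Trem1 (chromosome 17, 48232713 to 48246927, plus strand). It spanned 422 bp at 48244031 to 48244452, 11.3 kb after the start site, with peaks of 344 and 385 bp in the WT libraries. The peaks were weak, with deposited fold values of 2.90 and 2.99, which fell at percentiles 3.67 and 11.3 of their own lists. The fold value is the authors' enrichment of a peak over the peak caller's background, and a percentile ranks it among all peaks of the same list. Lists differ in length, so percentiles are set side by side here as descriptions and show no change by themselves. When only peaks with a q of 0.01 or less were kept, 0 regions of the 9 genes were WT-only. Both peaks also lay among the weakest 25% of their lists and are absent when those are removed.

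Trem1 differed in the opposite direction just upstream of its start. The region at 48230640 to 48231008, 1.7 kb before the start site, covered 240 and 265 bp in WT and 353 and 356 bp in KO. Both KO peaks were wider than both WT peaks, with means of 252.5 ± 17.7 and 354.5 ± 2.12 bp (SD, n = 2 each), a log2 ratio of 0.49. Its fold values were 6.94 and 6.69 for WT against 4.90 and 6.09 for KO, at percentiles 90.0 and 89.4 against 58.0 and 80.5. The KO peaks were thus wider and lower in rank. The region over the start site was small and weak in every library, with covered lengths of 172, 160, 230 and 162 bp in the order WT replicates 1 and 2, KO replicates 1 and 2, and percentiles from 4.71 to 15.3. A further region 1.9 kb into the gene was called in 3 libraries and missed in WT replicate 2.

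Trem2 itself (chromosome 17, 48346401 to 48352276, plus strand) had nearly the same regions in both genotypes. Of its 5 regions, 4 were shared and the remaining one, 7.8 kb after the start site, had a peak in KO replicate 1 and in WT replicate 2. The region over the start site, 48346108 to 48346723, covered 597 and 500 bp in WT and 615 and 528 bp in KO, with percentiles of 60.3 and 75.2 against 80.8 and 72.3. WT and KO values overlapped in both measures. A further region inside the gene, 811 bp after the start site, covered 609 and 608 bp in WT and 580 and 595 bp in KO. Those groups did not overlap, but the means differed by a log2 ratio of -0.05. The region 9.1 kb upstream (48336703 to 48337344) had the highest percentile of the Trem2 regions in every library except KO replicate 2, with percentiles of 82.6 and 96.8 for WT against 87.8 and 66.0 for KO. Its covered length was 378, 360 and 337 bp in 3 libraries and 606 bp in KO replicate 2, so the KO replicates differed from each other by more than the genotypes did. The region 9.3 kb after the start site, past the end of the gene, covered 561 to 685 bp with overlapping groups.

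Tyrobp (chromosome 7, 30413782 to 30417582) encodes the shared adaptor of both receptors. A region of 1536 bp at 30412518 to 30414053 lay over its lower-coordinate end, with covered lengths of 1366 and 1343 bp in WT and 1508 and 1333 bp in KO. Its percentiles were 45.9 and 48.9 for WT against 58.3 and 48.7 for KO, and the genotypes overlapped in both measures. The other shared region, 18671 bp from the gene, covered 503 and 811 bp in WT and 872 and 626 bp in KO. Another 2 weak regions were called in WT replicate 1 alone, at percentiles 3.33 and 1.96.

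Gpnmb (chromosome 6, 49036518 to 49058182, plus strand) encodes a transmembrane glycoprotein of lysosome-rich macrophages. It had the widest shared region of the 9 genes, 1876 bp over its start site (49035718 to 49037593). Covered lengths there were 1859 and 1594 bp in WT and 1450 and 1742 bp in KO, which overlap, while the percentiles of 25.2 and 22.3 in WT lay below the 34.9 and 41.3 of KO. Its 3 other shared regions lay 4.9, 9.5 and 15.0 kb upstream, and of these the region at 15.0 kb also had higher percentiles in KO (62.7 and 45.3) than in WT (36.9 and 42.3). Covered length there was 391 and 392 bp in WT and 199 and 400 bp in KO, so KO replicate 1 stood apart from the other libraries. The remaining 8 regions of Gpnmb were called in 1 or 2 libraries each and were 134 to 285 bp wide.

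Cd9 (chromosome 6, 125460266 to 125494760, minus strand) encodes a tetraspanin, a membrane organiser used to mark scar- and lipid-associated macrophages. It held the only KO-only region, 245 bp at 125454762 to 125455006, 39.8 kb after the start site and past the end of the gene. Peaks there covered 120 and 245 bp in KO, with fold values of 3.85 and 3.47 at percentiles 32.0 and 24.8, so that the peak of KO replicate 2 is absent when the weakest 25% of each list is removed. The highest ratio of KO to WT among the 38 shared regions was also at Cd9, 15.0 kb upstream of the start site at 125509716 to 125510721. It covered 390 and 437 bp in WT and 658 and 1006 bp in KO, with means of 413.5 ± 33.2 and 832 ± 246 bp (SD, n = 2 each) and a log2 ratio of 1.01, which 1.29% of all shared regions exceeded. Its percentiles overlapped, at 87.8 and 91.0 for WT against 96.2 and 77.2 for KO. Within the gene the direction was the reverse. The region 22.8 kb after the start site covered 770 and 917 bp in WT and 573 and 604 bp in KO, a log2 ratio of -0.52. Another 2 regions, past the gene end 60.6 and 67.8 kb after the start site, were also wider in both WT libraries, by log2 ratios of -0.14 and -0.11. At 67.8 kb the KO percentiles of 92.1 and 93.5 lay above the WT percentiles of 81.4 and 81.5. Over the Cd9 start site, both WT percentiles (28.0 and 26.2) lay above both KO percentiles (20.7 and 7.14), with overlapping covered lengths of 659, 466, 397 and 569 bp. The strongest region of Cd9 in rank, 48.9 kb after the start site, stood at percentiles 98.3 and 95.8 for WT against 97.3 and 97.7 for KO. The other shared regions of Cd9, 4.4 and 12.2 kb into the gene and farthest past its end, overlapped in both measures.

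Apoe (chromosome 7, 19696244 to 19701310, minus strand) encodes apolipoprotein E, the lipid carrier that macrophages secrete and that TREM2 binds. Both of its regions were shared. The region over the most upstream of its 3 RefSeq start sites, 19698975 to 19699931, overlapped between the genotypes, with covered lengths of 806 and 878 bp in WT and 957 and 856 bp in KO and percentiles from 18.6 to 22.4. The second region, 1.8 kb upstream at 19700998 to 19701476, covered 316 and 340 bp in WT and 211 and 176 bp in KO. Both WT peaks were wider than both KO peaks, with means of 328 ± 17.0 and 193.5 ± 24.7 bp (SD, n = 2 each) and a log2 ratio of -0.76, and 3.53% of all shared regions had a lower ratio. Percentiles overlapped there (49.2 and 69.6 in WT, 54.9 and 50.8 in KO). This region lies over the higher-coordinate end of the Apoe annotation and also touches Tomm40, the next gene, so its assignment to Apoe is uncertain.

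Spp1 (chromosome 5, 104435111 to 104441053, plus strand) encodes osteopontin, a secreted phosphoprotein that binds integrins and CD44. It showed the largest width difference among the 9 genes, and its differences ran in both directions. The region 26.6 kb upstream of the start site (104407349 to 104408478) covered 859 and 1083 bp in WT and 308 and 518 bp in KO. Means were 971 ± 158 and 413 ± 148 bp (SD, n = 2 each), a log2 ratio of -1.23, and 0.645% of all shared regions had a lower ratio. The region 8.3 kb upstream (104425932 to 104426836) covered 866 and 873 bp in WT and 455 and 458 bp in KO. Its log2 ratio was -0.93, with very close replicates (869.5 ± 4.95 and 456.5 ± 2.12 bp, SD, n = 2 each). In both of these regions the wider WT peaks ranked lower than the KO peaks. Percentiles at 26.6 kb were 48.0 and 35.98 for WT against 82.2 and 51.2 for KO, and those at 8.3 kb were 24.6 and 26.0 against 27.7 and 39.1. The region 10.7 kb after the start site, past the gene, was wider and higher in rank in WT, covering 662 and 354 bp against 319 and 237 bp, with percentiles of 77.9 and 80.4 against 54.8 and 70.9. WT replicate 1 carried much of that width difference, as its 662 bp stood far from the other 3 values.

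A further 2 regions of Spp1 were wider in KO. The region 1.9 kb upstream covered 138 and 121 bp in WT and 180 and 269 bp in KO, a log2 ratio of 0.79. The distal region 38.3 kb upstream (104396258 to 104396812) covered 405 and 446 bp in WT and 555 and 505 bp in KO, a log2 ratio of 0.32. It was the highest ranked region of all 9 genes in a single list, at rank 337 of the 69210 peaks of WT replicate 1 with a fold value of 9.71, and it stood at percentiles 87.5 in WT replicate 2 and 89.1 and 90.5 in KO. Over the start site itself (104434760 to 104435319) the genotypes overlapped, with covered lengths of 402 and 498 bp in WT and 411 and 547 bp in KO and percentiles of 70.2 and 74.5 against 82.8 and 61.5. Spp1 had 9 regions in all, of which 7 were shared and none was called in 1 genotype alone by both of its libraries.

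Lgals3 (chromosome 14, 47373860 to 47386167, plus strand) encodes galectin-3, a lectin that binds galactosides and is known as the macrophage marker Mac-2. Where the genotypes of Lgals3 did not overlap in width, KO was wider. The region over its start site (47373752 to 47375443) covered 990 and 941 bp in WT and 1171 and 1677 bp in KO, with means of 965.5 ± 34.6 and 1424 ± 358 bp (SD, n = 2 each) and a log2 ratio of 0.56. KO replicate 2 stood apart there, and the percentiles overlapped (33.4 and 38.3 in WT, 48.2 and 34.2 in KO). The region 14.0 kb upstream covered 175 and 179 bp in WT and 271 and 206 bp in KO, and its percentiles of 11.1 and 16.2 in WT lay below the 19.2 and 29.4 of KO. The region 11.5 kb upstream, the widest of the upstream regions at 841 bp, covered 741 and 795 bp in WT and 841 and 800 bp in KO, a log2 ratio of 0.10. A region 22.5 kb upstream ranked higher in KO and a weak one 8.5 kb upstream ranked higher in WT, both with overlapping widths. The shared regions 1.8 and 19.3 kb upstream overlapped in both measures.

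Fn1 (chromosome 1, 71585473 to 71653280) encodes fibronectin, a matrix protein, and is the longest of the 9 genes at 67808 bp. A single shared region lay over its higher-coordinate end, 71652714 to 71654040. Its covered length was 491 and 605 bp in WT but 154 and 1213 bp in KO, so that the KO replicates lay on either side of both WT values. Percentiles were low throughout, from 9.83 to 30.6. The other 2 regions of Fn1 were called in a single WT library each.

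**Figure D2:**
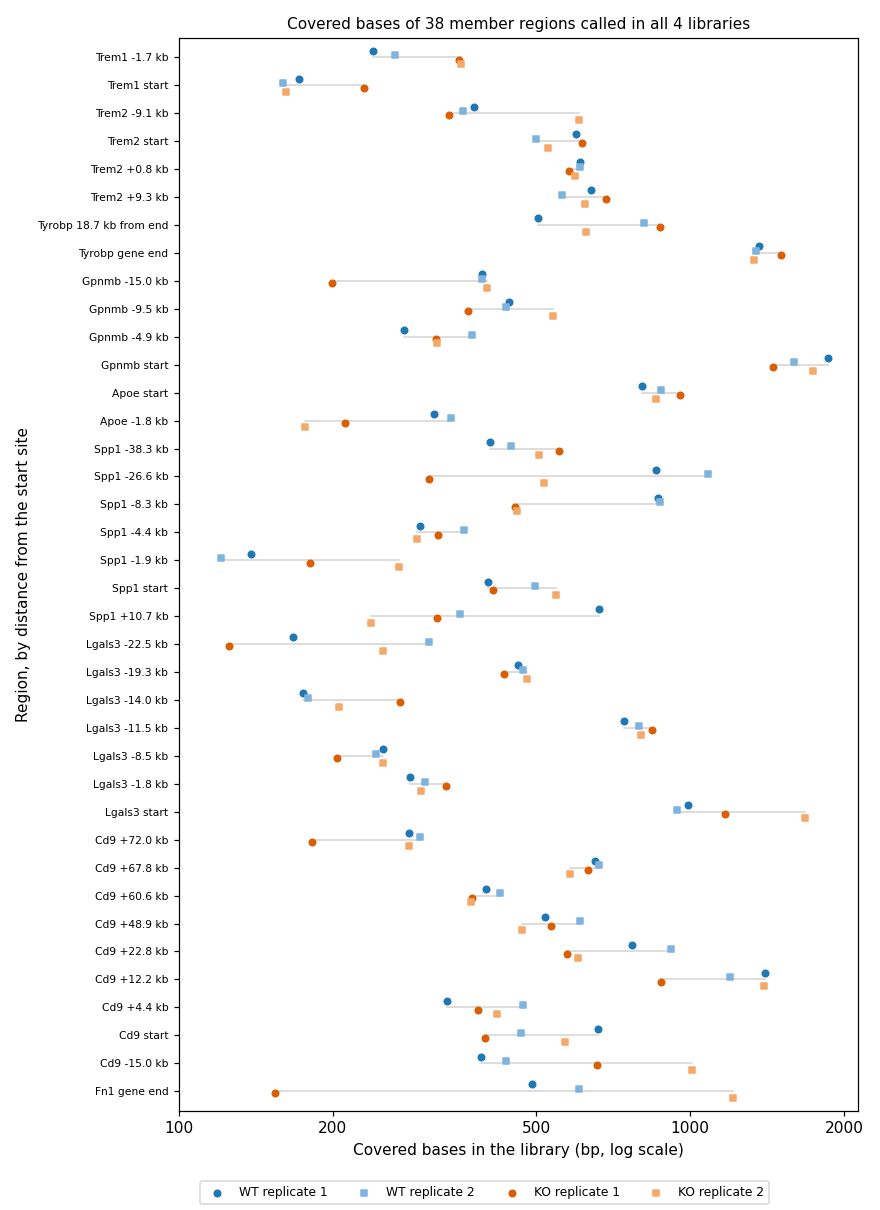
Covered bases (bp, log axis) in each library for the 38 shared regions of the 9 genes, with points offset vertically by library and a grey line over their range. At Spp1 8.3 kb upstream both WT points lie near 870 bp and both KO points near 457 bp, while at the Fn1 gene end the KO points lie at 154 and 1213 bp.

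Across the 38 shared regions, both KO libraries covered more bases than both WT libraries in 7 (18.4%), against 16.5% of all 47917 shared regions. The reverse held in 8 (21.1%), against 16.8%. The median log2 ratio of KO over WT was -0.02 in the 38 regions and -0.0024 in all shared regions, both close to 0. Ratios of 6 member regions fell outside the span from -0.66 to 0.62 that holds the middle 90% of all shared regions. They were 4 of the 7 shared regions of Spp1, the region upstream of the Apoe start site, which also touches Tomm40, and the region upstream of Cd9. Leaving out a library loosens this rule, and the share of all shared regions that then meets it is not given here. KO was then wider in 13 regions without KO replicate 1, in 14 without KO replicate 2, in 14 without WT replicate 2 and in 10 without WT replicate 1. WT was wider in 19 without KO replicate 2, in 14 without WT replicate 1 and in 11 without either of the other libraries.

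**Figure D3:**
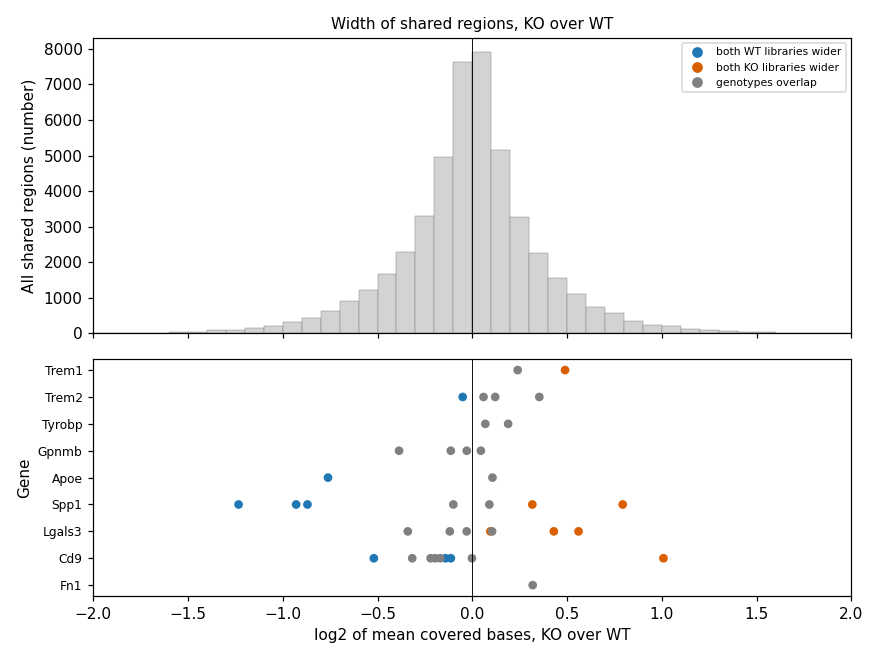
Top, number of all 47917 shared regions by the log2 ratio of mean covered bases, KO over WT. Bottom, the same ratio for each shared region of the 9 genes, coloured by whether both libraries of a genotype exceeded both of the other. Spp1 spans from -1.23 to 0.79, and Cd9 reaches 1.01.

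By rank, both KO libraries had the higher percentile in 8 of the 38 shared regions (21.1%), against 17% of all shared regions, and both WT libraries in 4 (10.5%), against 17.9%. The 8 were 2 each at Gpnmb and Spp1, 3 at Lgals3 and 1 at Cd9, and the 4 were 1 each at Trem1, Spp1, Lgals3 and Cd9. With a library left out the KO count ran from 15 to 17 and the WT count from 8 to 11. Each was over 1.5 times the count with all 4, and this held for each library. The rule is looser with fewer libraries, and its share over all shared regions is not given here, so no conclusion is drawn from the rise. Width and rank often pointed in opposite directions. In 7 member regions neither measure overlapped between genotypes, and in 4 of these the genotype with the wider peaks had the lower percentiles. Among all shared regions this was so in 4474 of 6309 cases (70.9%). For a broad peak, MACS2 is known to write a fold value averaged over the peak.

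**Figure D4:**
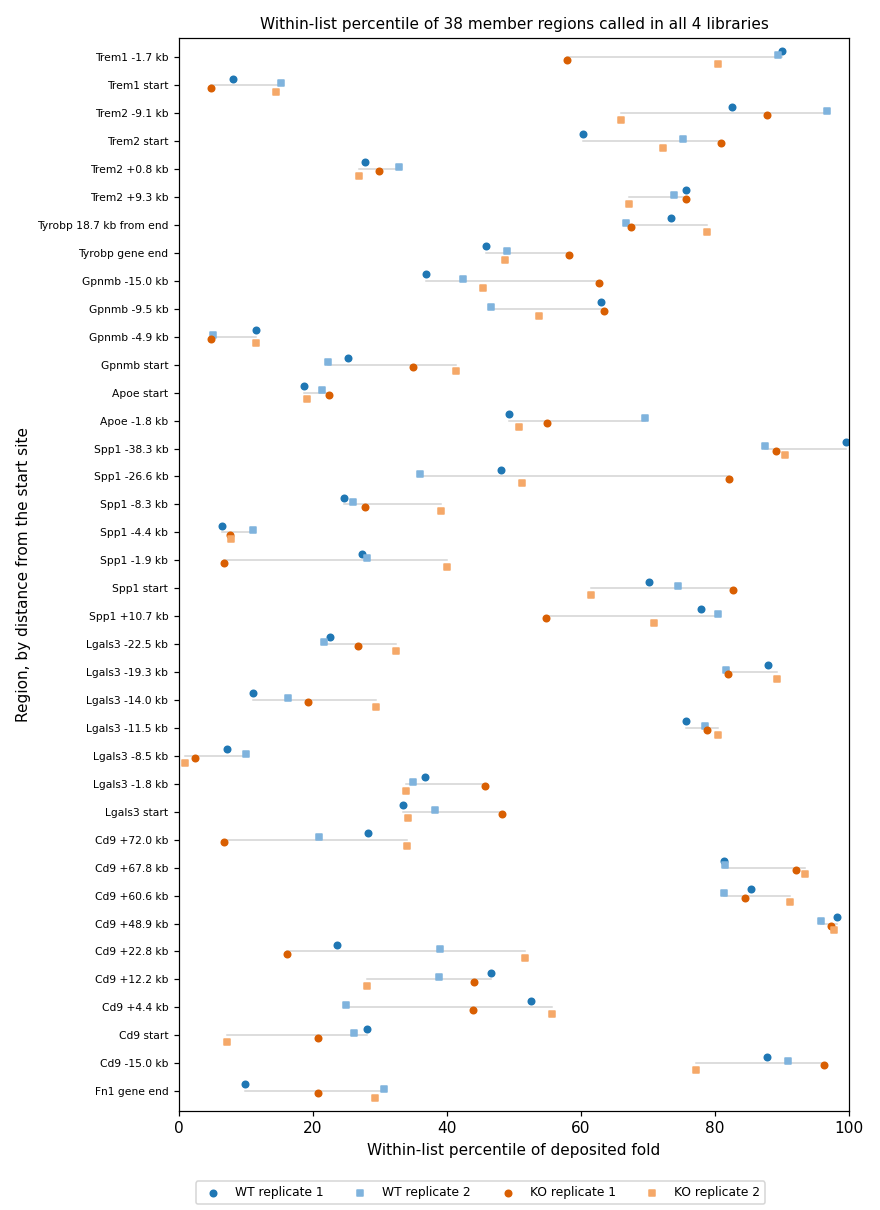
Within-list percentile of the deposited fold value in each library for the 38 shared regions of the 9 genes, with points offset vertically by library and a grey line over their range. The Cd9 region 48.9 kb after the start site lies above 95 in every library, while the Trem1 and Apoe start sites lie below 25.

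The start regions of several members ranked low for start sites. Over all 11795 shared regions within 1 kb of a start site (or gene end, for genes with no start in the table), the median percentile was 73.2 and 74.0 for WT against 74.1 and 74.6 for KO. The start regions of Trem2 (60.3 and 75.2 in WT, 80.8 and 72.3 in KO) and Spp1 (70.2 and 74.5, 82.8 and 61.5) lay above these medians in some libraries and below in others. Those of Trem1, Gpnmb, Apoe, Cd9, Lgals3, Fn1 and Tyrobp were below them in all 4 libraries. A second shared Trem2 region, 811 bp after the start site, was also below them (27.7 and 32.9 in WT, 29.9 and 26.9 in KO). Median width of the 11795 regions was 848 bp. The Gpnmb, Lgals3, Tyrobp, Fn1 and Apoe regions were wider (957 to 1876 bp). Those of Trem1, Cd9, Trem2 and Spp1 over the start site were narrower (268, 670, 616 and 560 bp). Whether width bears on these ranks was not tested. Median percentiles of the 38 shared member regions were 46.2 and 38.8 for WT against 51.5 and 49.8 for KO, against 60.9 and 62.8 and 60.1 and 62.1 over all shared regions.

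Summed over all regions of a gene, covered bases did not overlap between genotypes for 5 of the 9 genes. Spp1 covered 3854 and 3736 bp in WT and 2767 and 2826 bp in KO, a log2 ratio of -0.44, and 6.74% of genes with a shared region had a lower ratio. Lgals3 covered 3068 and 3386 bp in WT and 3893 and 3962 bp in KO, a log2 ratio of 0.28, which 10.9% of genes exceeded. WT was also higher for Trem1 (865 and 810 bp against 693 and 672 bp) and Gpnmb (3209 and 3474 bp against 2980 and 3000 bp), and KO was higher for Trem2 with only a few bases between the nearest libraries (2225 and 2347 bp against 2359 and 2351 bp). The count was thus 2 genes for KO and 3 for WT, where 14.5% and 17.2% of 15066 genes did the same. Over shared regions alone, Spp1 and Lgals3 kept their direction (3628 and 3736 bp against 2549 and 2826 bp, and 3068 and 3241 bp against 3378 and 3962 bp). Trem1 turned to KO (412 and 425 bp against 583 and 518 bp), with its WT-only region and its region called in 3 libraries left out. Trem2 and Gpnmb overlapped. The sums of Tyrobp, Apoe, Cd9 and Fn1 overlapped over all regions.

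Genes around this programme were examined as lists. As reference, 59.5% of all regions were shared, 1.44% were KO-only and 1.94% WT-only. KO was wider in 16.5% and WT in 16.8% of all shared regions. Of all protein-coding genes, 54.8% had a shared region at a start site or gene end. Here and in the lists below, a gene end was used only where no start site was listed. The 13 genes of TREM2 and DAP12 signalling, from the kinase Syk and the phospholipase Plcg2 to the phosphatase Inpp5d and the sheddases Adam10 and Adam17, all had a shared region at a start site. Of their 129 regions, 100 (77.5%) were shared and 0 were called in 1 genotype alone by both of its libraries. KO was wider in 20 and WT in 10 of the 100. Pik3ap1, Syk, Grb2 and Inpp5d had the most shared regions, with 14, 13, 13 and 11. Among 4 other genes of the TREM cluster on chromosome 17, Trem3, Treml2 and Treml4 had a shared region at a start site or gene end, and Treml1 had no assigned region. WT was wider in 2 and KO in 0 of the 7 shared regions of this cluster. Of the 5 neighbours of Apoe, Apoc1, Apoc2, Tomm40 and Nectin2 had such a region and Apoc4 had no assigned region. Here KO and WT were each wider in 1 of 7 shared regions.

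Of 24 other genes of the lipid-associated programme, 19 had a shared region at a start site, and Fabp4, Cd36, Axl, Mmp12 and Ch25h did not. Their 150 regions included 113 shared (75.3%) and 3 called by both libraries of 1 genotype alone. A KO-only region of 239 bp lay in Abca1, which encodes a cholesterol exporter. Its KO peaks were weak, at percentiles 0.997 and 3.22 of their lists. Of the 3, 2 were WT-only and lay in Lipa, which encodes lysosomal acid lipase (181 bp), and in the fatty acid receptor gene Cd36 (143 bp). Their WT percentiles were 8.19 and 14.4 at Lipa and 44.8 and 14.3 at Cd36. KO was wider in 21 and WT in 14 of the 113 shared regions, against 16.5% and 16.8% of all shared regions. Receptors of the secreted members had 163 regions, of which 100 were shared, 2 were KO-only, and 4 were found in WT alone. In KO these lay near Itga5 and in Mertk, and in WT in or near Itgav, Itga4, Itgb3 and Itgb5. Most genes of this list encode integrin subunits. The WT peaks at Itga4 and Itgb5 were among the weakest of their lists, at percentiles below 1. KO and WT were each wider in 19 of the 100 shared regions. Vldlr, Itgb3, Itga5 and Itga9 lacked a shared region at a start site. All 10 regulators, among them Spi1 (PU.1), Cebpa, Pparg and Tfeb, had a shared region at a start site. Their 147 regions included 1 KO-only region, in Runx1, and 2 WT-only regions, near Runx1 and in Mitf. KO was wider in 18 and WT in 13 of their 98 shared regions.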

How the data were processed

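The 4 broad peak lists were used, 1 per library and not pooled, with libraries placed in their genotype by title. The submitters' processing notes name fastp, Bowtie2, MACS2 and mm10, with no versions, and the filter applied to the lists was not stated. By the layout of the deposited lists, each peak carries a score, a fold value, a −log10 p and a −log10 q, the largest q in any list being 0.0497. Depth per sample is unknown, and a missing peak may reflect depth.

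With Python 3.11.15, pandas 2.3.3 and numpy 2.4.6, peaks were merged at 1 bp overlap and given to the nearest protein-coding gene within 50 kb, using RefSeq genes of GRCm38.p6. Start sites came from the RefSeq promoter table, which held 7 of the 9 genes, and not Tyrobp or Fn1. Covered bases are the summed peak lengths of a library in a region. Where a region held several peaks of a library, the strongest gave the fold value and percentile. All 9 members were named. Of the lists around the programme, genes with a region called in 1 genotype alone or with no shared region were named. The 4 with the most shared regions were named only for TREM2 and DAP12 signalling. Some genes of the signalling and regulator lists were named as examples. Cell type markers were counted and not named as markers. Other list genes named by what was seen at their start sites were chosen after their values were seen. The members and lists were chosen with earlier results of these data known. The merging was tested on simulated data. Alternatives changed the merging, the distance, the peak threshold and the libraries used, and the scaling of covered bases by each library's median and the pairing by replicate number were added after seeing the data.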

Additional observations from a re-analysis of the deposited data

How the results depend on the processing

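The 38 shared regions numbered 79 when every region within 50 kb was used whatever its nearest gene, 14 inside or touching the genes, 25 within 10 kb and 23 with the weakest 25% of each list removed. The single KO-only region was absent (0) inside or touching the genes, and the single WT-only region (0) at a q of 0.01 or less. With the weakest 25% of each list removed both counts were again 1, but at other regions, a KO-only region at Lgals3 and a WT-only region over the Cd9 start site, each of which was shared in the full lists. Regions wider in KO, 7 in the report, numbered 1 inside or touching the genes and 3 within 10 kb. Those wider in WT, 8 in the report, numbered 16 with every region within 50 kb, 3 inside or touching the genes and 5 within 10 kb. Regions ranked higher in KO, 8 in the report, numbered 19, 1 and 2 under these 3 choices and 4 with the weakest 25% removed. Those ranked higher in WT, 4 in the report, numbered 10 with every region within 50 kb, 1 inside or touching the genes and 2 with the weakest 25% removed. Genes with a shared start region fell from 9 to 4 with the weakest 25% removed. The choices of distance change which regions enter, and the causes of the other shifts were not tested. Leaving out 1 library at a time gave 38 to 39 shared, 1 to 6 KO-only and 1 to 7 WT-only regions, 10 to 14 wider in KO, 11 to 19 wider in WT, 15 to 17 ranked higher in KO and 8 to 11 ranked higher in WT, and 9 genes with a shared start region each time. With a library left out these rules are looser, and the matching shares over all regions are not given here. Dividing covered bases by each library's median, chosen after seeing the data, gave 6 wider in KO and 7 in WT. Libraries of the same replicate number resembled each other in covered length (27.7 and 26.7 Mb in replicate 1, 29.8 and 29.9 Mb in replicate 2) and highest fold value (45.4 and 45.5 against 25.5 and 25.2). Paired by that number, a comparison also added after seeing the data and without a test, both pairs were wider in KO in 11 regions and in WT in 10, and ranked higher in KO in 9 and in WT in 6. Among all shared regions the same rule held for 25%, 25.5%, 25% and 26.7%. Of 83 alternative values, 45 stayed within 1.5 times the value in the report and 38 did not. Depth is unknown and limits which weak peaks could be called.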
